A study of Mus musculus with 7 samples.

Results

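The somatostatin system of the mouse forebrain was examined through 7 genes, the peptide precursors *Sst* and *Cort* and the receptors *Sstr1* to *Sstr5*, chosen by symbol from the 47729 genes of the deposited table. All 7 passed the filter on low counts and were among the 19684 genes tested. Total RNA came from forebrains collected at postnatal day 15, 4 pools from *Lhx6*+/- mice (control) and 3 from *Lhx6*-/- mice (mutant), with 2 animals in each pool. The strain is given as F1(C57BL/6 X 129Sv), and pools held males, females or 1 of each. The null allele, *Lhx6* tm2Vpa, is constitutive and every control carries 1 copy of it, so no wild-type forebrain was compared, and whole-forebrain RNA does not resolve cortex from other regions. Library columns carry a genotype and a number (2, 3, 10 and 11 for controls, 5, 12 and 13 for mutants) that does not link them to a pool's sex or RNA quality.

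*Sst* encodes the precursor of somatostatin, an inhibitory neuropeptide made in the cortex by a large class of GABAergic interneurons that arise in the medial ganglionic eminence (MGE). *Cort* encodes the precursor of cortistatin, a close relative found in cortical and hippocampal interneurons, some of which also make somatostatin or parvalbumin. Both peptides bind all somatostatin receptors, which are G protein-coupled receptors that act through Gi/o proteins to lower cyclic AMP and to open inwardly rectifying potassium channels. *Lhx6* encodes a LIM homeodomain transcription factor of MGE-derived interneurons, and the comparison asks how the transcriptome of the forebrain differs when it is missing.

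The peptides share a core that is visible in the messenger RNA. The 39 coding bases that end at the stop codon of *Sst* (chr16:23889732-23889770, minus strand, GRCm38) and the 39 that end 3 bases before the stop codon of *Cort* (chr4:149125270-149125308, minus strand) were aligned without gaps. These stretches code for most of the short mature form of each peptide, and they are printed to show how alike the ligands are. Capitals mark the 31 positions (79.5%) with the same base in both.
Sst coding end: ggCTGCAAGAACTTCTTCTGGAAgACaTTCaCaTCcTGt
Cort coding end: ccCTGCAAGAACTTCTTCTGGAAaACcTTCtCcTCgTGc
Across the whole transcripts, the longest run of identical bases was 21, shorter than a 36 bp read. No 36-base word of *Sst* or *Cort* occurred in a transcript of another gene. Among the receptors this share was 0 for *Sstr1*, *Sstr2* and *Sstr4*, 0.140% for *Sstr3* and 0.220% for *Sstr5*.

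The genes also differ at their start. The cyclic AMP response element (TGACGTCA, a palindrome, so that both strands are searched at once) was looked for in RefSeq windows of GRCm38.p6 that run from 250 bases before to 50 bases after each start. The 2 ligand promoters are shown because the ligands moved in opposite directions, and that of *Sstr2* because it was the other window with the whole element. Capitals mark the element or its core (CGTCA, or TGACG on the other strand).
Sst promoter (chr16:23890795-23891094, minus strand): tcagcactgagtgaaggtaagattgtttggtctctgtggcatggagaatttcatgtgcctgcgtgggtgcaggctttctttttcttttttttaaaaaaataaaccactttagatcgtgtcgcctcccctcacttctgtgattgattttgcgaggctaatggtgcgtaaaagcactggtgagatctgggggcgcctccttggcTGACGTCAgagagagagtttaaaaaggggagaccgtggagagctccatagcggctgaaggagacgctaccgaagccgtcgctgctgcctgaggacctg
Cort promoter (chr4:149126714-149127013, minus strand): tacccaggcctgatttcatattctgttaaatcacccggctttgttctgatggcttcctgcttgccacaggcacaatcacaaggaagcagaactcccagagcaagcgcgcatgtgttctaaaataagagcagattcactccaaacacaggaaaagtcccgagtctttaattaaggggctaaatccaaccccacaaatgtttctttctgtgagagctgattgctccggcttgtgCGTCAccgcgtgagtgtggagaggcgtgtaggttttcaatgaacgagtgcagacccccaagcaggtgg
Sstr2 promoter (chr11:113619077-113619376, plus strand): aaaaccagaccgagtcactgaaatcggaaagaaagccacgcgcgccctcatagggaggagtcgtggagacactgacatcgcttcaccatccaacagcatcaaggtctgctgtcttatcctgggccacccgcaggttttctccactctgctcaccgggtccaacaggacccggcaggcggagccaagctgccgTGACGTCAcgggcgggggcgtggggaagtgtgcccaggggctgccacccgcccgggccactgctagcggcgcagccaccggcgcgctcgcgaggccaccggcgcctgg
The element lay at -48 to -41 in *Sst* and at -58 to -51 in *Sstr2*. The *Cort* window held a single core, which began at -18, 1 of the 2 *Sstr3* windows held a core at -9, and the *Sstr4* window held neither. Of all 32851 promoter windows, 1.79% held the element and 20.8% held the core, a count that includes those within the element. *Sstr1* and *Sstr5* had no entry.

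Libraries summed to between 32556304 and 38069151 expected counts, and 3 counts, the most that a gene listed at 0 can be taken to have by counting error alone, equal 0.0788 to 0.0921 CPM (the count relative to the TMM-scaled library total). Values below are normalized counts, in which each library is brought to the average TMM-scaled total. As a check of the genotypes, the level of *Lhx6* was 615, 522, 476 and 522 in controls 2, 3, 10 and 11, against 70.9, 76.6 and 70.1 in mutants 5, 12 and 13. Within a genotype, chi-square per degree of freedom was 10.77 between libraries 10 and 11 and 10.16 between 12 and 13, 38.47 between 2 and 3, but 45.78 to 72.58 between any of these and libraries 2, 3 and 5, for which reason fold changes are repeated inside each of these runs of numbers. What the runs stand for is not stated. Markers of cortical excitatory neurons were well expressed in every library (summed level 2277 to 3073 CPM over 8 genes). *Hoxa5* was at 0 in all libraries and *Hoxb3*, another hindbrain gene, had at most 1 count in each. Hypothalamic markers summed to between 2.65 and 7.88 CPM over 9 genes, and *Hcrt* did not exceed 3 counts in any library.

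**Figure D1:**
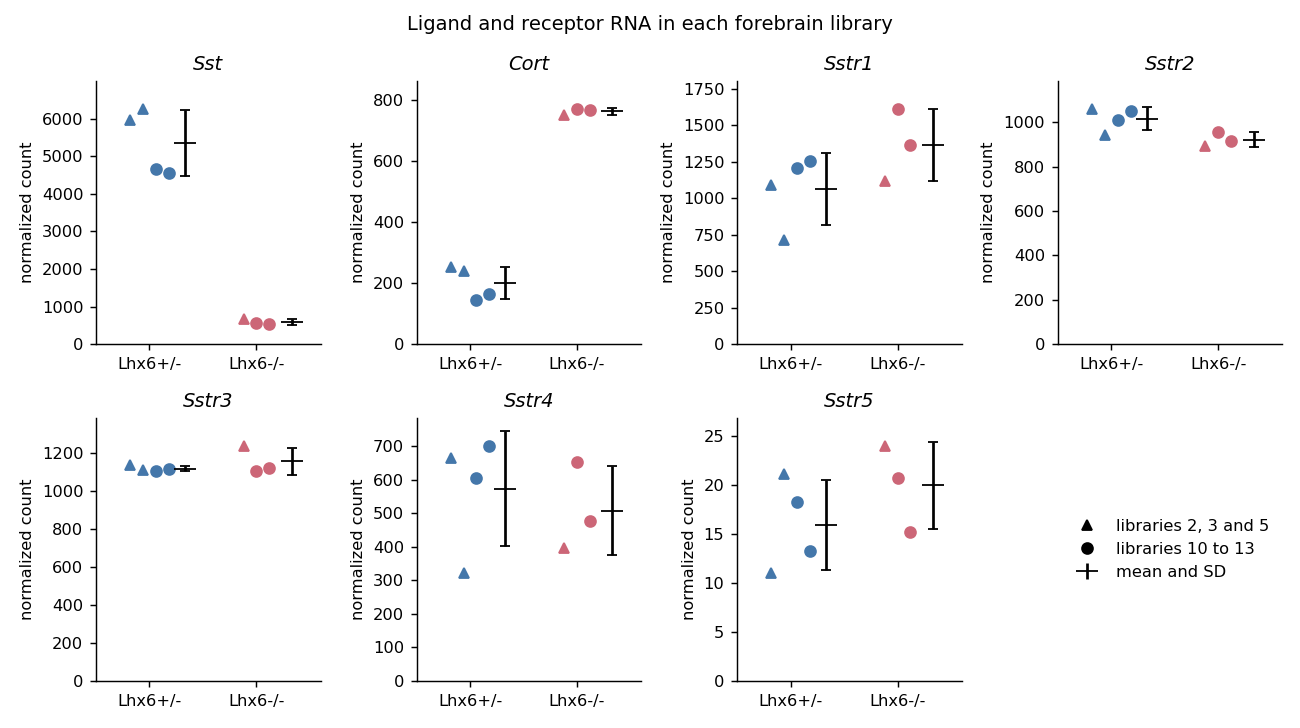
Normalized counts of the ligand genes *Sst* and *Cort* and the 5 receptor genes in 4 control (*Lhx6*+/-, blue) and 3 mutant (*Lhx6*-/-, red) libraries, with triangles for libraries 2, 3 and 5, circles for libraries 10 to 13, and black bars for mean and SD. The genotypes do not overlap for *Sst*, which is lower in mutants, and for *Cort*, which is higher; for each receptor at least 1 mutant library lies within the control range.

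The ligand genes moved in opposite directions. The normalized count of *Sst* (ENSMUSG00000004366, minus strand of chromosome 16 from 23889581 to 23890844, GRCm38) was 5964, 6248, 4649 and 4565 in controls 2, 3, 10 and 11. In mutants 5, 12 and 13 it was 670, 554 and 542. Every mutant library was thus far below the lowest control library, and within each genotype the libraries of the run 2, 3 and 5 were the higher ones. The control mean was 9.11 times the mutant mean (5356 ± 874 and 588 ± 70.7, SD, n = 4 and 3 pools), and the log2 fold change was -3.19 (95% interval -3.54 to -2.83, adjusted p = 6.37e-05 from edgeR). By p-value *Sst* ranked 2 among all genes that were lower in mutants.

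*Cort* (ENSMUSG00000028971), which lies on the minus strand of chromosome 4 from 149125034 to 149126763 of GRCm38, had normalized counts of 252, 239, 145 and 166 in controls 2, 3, 10 and 11. In mutants 5, 12 and 13 these were 751, 770 and 767. The mutant libraries lay close together and all lay above the highest control library, whereas controls 2 and 3 were higher than controls 10 and 11. The mean rose 3.81-fold, from 200 ± 53.1 to 763 ± 10.2 (SD, n = 4 and 3 pools), with a log2 fold change of 1.93 (standard error 0.193, 95% interval 1.49 to 2.37, adjusted p = 0.00132 from edgeR). Within libraries 2, 3 and 5 the log2 fold change of *Cort* was 1.61 and within libraries 10 to 13 it was 2.32. For *Sst* these values were -3.19 and -3.06. Leaving out 1 library at a time gave 1.80 to 2.06 for *Cort* and -3.28 to -3.11 for *Sst*, and both calls held each time.

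*Cort* and *Sst* were the members called (adjusted p at or under 0.05), 2 of 7, where 4.85% of all tested genes were called. They were also the members whose genotypes did not overlap, as was seen for 19.7% of tested genes. The gene nearest to *Cort* is *Apitd1*, which codes for a centromere protein and lies 358 bases away on the same strand, with no shared exon. *Apitd1* had 66.1 ± 21.9 normalized counts in controls and 51.9 ± 9.44 in mutants (SD, n = 4 and 3 pools), and its genotypes overlapped. Because the libraries were made from bulk tissue, fewer cells of a type and less RNA in each cell cannot be told apart.

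**Figure D2:**
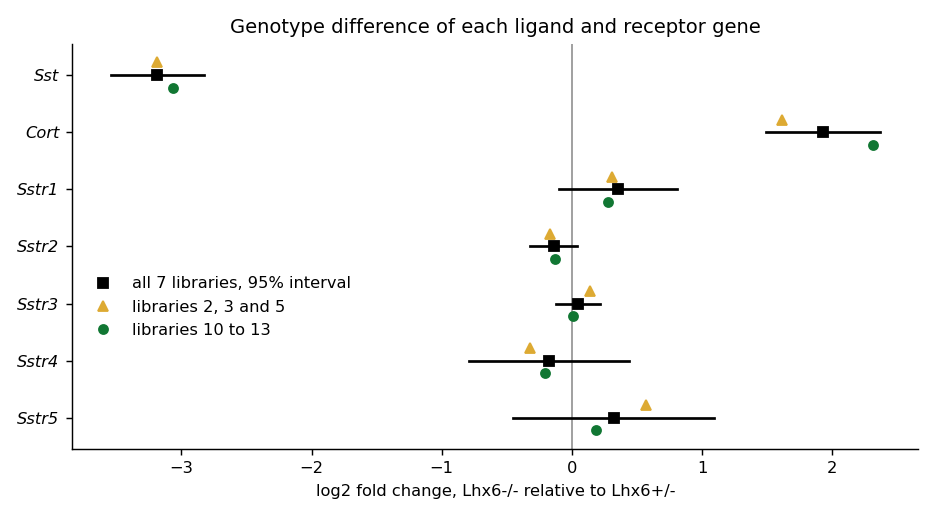
Log2 fold change of each gene in mutant relative to control forebrain (horizontal axis), as the edgeR estimate from all 7 libraries with its 95% interval (black), and as the value within libraries 2, 3 and 5 (triangles) and within libraries 10 to 13 (circles). The intervals of *Sst* and *Cort* lie on opposite sides of 0, and those of the 5 receptors include 0.

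The balance between the ligands was read within each library as the log2 ratio of *Sst* to *Cort* in CPM. It was 4.552, 4.697, 4.985 and 4.767 in controls 2, 3, 10 and 11, and -0.17, -0.47 and -0.50 in mutants 5, 12 and 13. On this scale, without correction for length, *Sst* had the higher value in every control library and the lower in every mutant library. Per kilobase of merged exon, *Sst* (31.37 CPM) was no lower than *Cort* (31.14 CPM) in mutant library 5, but was lower in libraries 12 and 13. The mean ratio differed by -5.13 on the log2 scale between genotypes (exact permutation test over libraries, two-sided, p = 0.0286, the smallest p that 35 splits allow, or 0.0429 after Benjamini-Hochberg adjustment over 6 pairs). Since each ligand on its own already separated the genotypes, in opposite directions, their ratio had to separate them too, and the p-value adds no evidence to the results of the single genes.

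Ratios of 5 further pairs were read in the same way. *Sst* fell by an amount close to that of *Lhx6* and of *Pvalb*, which encodes the calcium-binding protein parvalbumin of the other main MGE-derived class. The log2 ratio of *Sst* to *Lhx6* differed by -0.33 between genotypes (3.31 ± 0.190 and 2.98 ± 0.199, SD, n = 4 and 3 pools, exact permutation p = 0.0857, adjusted p = 0.103). That of *Sst* to *Pvalb* differed by -0.13 (2.52 ± 0.328 and 2.40 ± 0.564, exact permutation p = 0.686, adjusted p = 0.686). These p-values do not show that the 3 genes fell alike. *Lhx6* is also the mutated gene, so its own fall is set by the genotype. The remaining pairs joined a gene that rose with one that fell and are given as values only. The log2 ratio differed by 4.797 for *Cort* to *Lhx6*, by 5.004 for *Cort* to *Pvalb* and by -4.86 for *Sst* to *Npy*, which encodes neuropeptide Y and is expressed in a subset of somatostatin interneurons.

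Levels were compared between genes as CPM per kilobase of merged exon. In controls *Sst* stood at 251 ± 41.0 (SD, n = 4 pools) and *Cort* at 8.31 ± 2.202, which lay within the range of the receptors. In mutants *Cort* stood at 31.6 ± 0.419 and *Sst* at 27.6 ± 3.31 (SD, n = 3 pools), and their library values overlapped. *Cort* made up between 2.68% and 3.61% of the summed ligand level in control libraries and between 49.8% and 55.6% in mutant libraries. The sum of both ligands was 259 ± 43.1 CPM per kilobase in controls and 59.2 ± 2.91 in mutants, with 220.7 in the lowest control library and 62.5 in the highest mutant library. The gain in *Cort* was thus smaller, on this scale of level per length, than the loss of *Sst*.

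**Figure D3:**
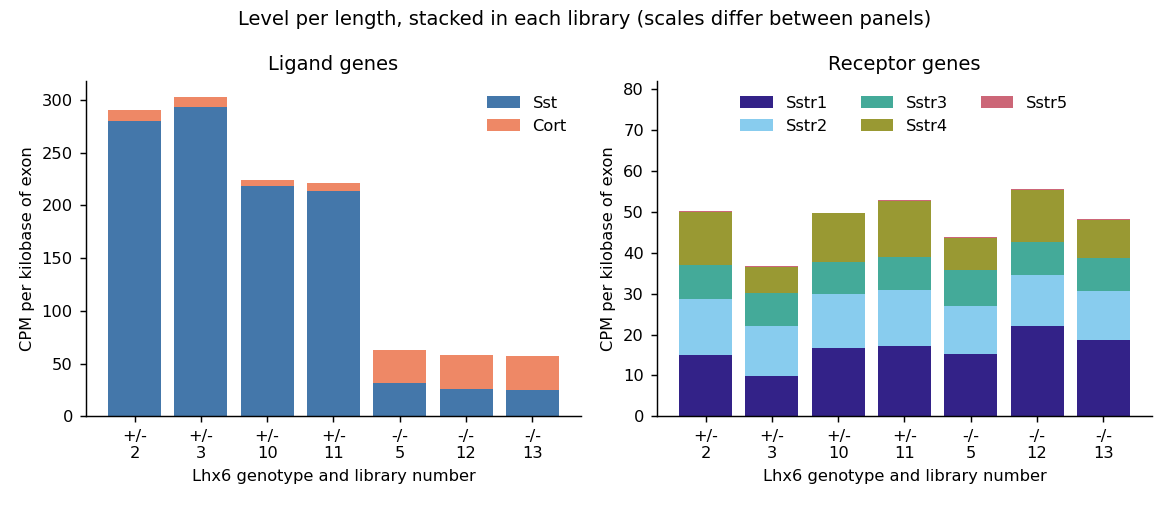
Level per length in CPM per kilobase of merged exon, stacked for the 2 ligand genes (left) and the 5 receptor genes (right) in each library, labelled with its *Lhx6* genotype and number. The ligand bars run from 220.7 to 303 in controls and from 57.2 to 62.5 in mutants, where *Cort* makes up about as much as *Sst*, whereas the receptor bars run from 36.7 to 52.9 in controls and from 43.9 to 55.6 in mutants.

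None of the 5 receptor genes was called (0 by edgeR, 0 by DESeq2 and 0 by limma-voom), and 0 had an unadjusted p-value of 0.05 or less in edgeR. Among all 19684 tested genes, edgeR called 4.85%, and 3590 had an unadjusted p-value of 0.05 or less. Counts of 0 among 5 genes therefore do not set the receptors apart from tested genes at large. *Sstr1* encodes a receptor found on axons and on somatostatin neurons themselves, among other sites. Normalized counts were 1088, 711, 1210 and 1253 in controls 2, 3, 10 and 11, and 1116, 1610 and 1363 in mutants 5, 12 and 13. Control library 3 was the lowest and mutant libraries 12 and 13 exceeded all controls, but mutant library 5 lay within the control range. The log2 fold change was 0.36 (95% interval -0.097 to 0.81, adjusted p = 0.409 from edgeR), so an increase of up to 0.81 on the log2 scale is within the interval. Within libraries 2, 3 and 5 the value was 0.31 and within libraries 10 to 13 it was 0.28. Without control library 3 the value was 0.20 and without mutant library 12 it was 0.22, so that these libraries carried much of it.

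*Sstr2* encodes a receptor on the cell body and dendrites of many cortical neurons and is the gene whose promoter window shares the cyclic AMP response element with *Sst*. It had 1059, 945, 1009 and 1052 normalized counts in controls 2, 3, 10 and 11 and 892, 957 and 918 in mutants 5, 12 and 13. The range of the genotypes overlapped through control library 3 and mutant library 12. The log2 fold change was -0.14 (95% interval -0.32 to 0.040, adjusted p = 0.413 from edgeR), which places a decrease larger than 0.32 outside the interval. *Slc39a11*, a zinc transporter gene on the opposite strand, spans *Sstr2* without sharing exon bases. It is not stated whether the counting used strand, and *Slc39a11* had 443 ± 71.0 normalized counts in controls and 507 ± 78.4 in mutants, with overlapping genotypes.

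*Sstr3*, whose receptor sits in the primary cilium of neurons, varied least among controls. It had 1139, 1111, 1107 and 1118 normalized counts in controls 2, 3, 10 and 11 and 1238, 1107 and 1123 in mutants 5, 12 and 13. The log2 fold change was 0.047 (95% interval -0.12 to 0.22, adjusted p = 0.816 from edgeR). *Sstr4*, a receptor gene of hippocampal and cortical excitatory neurons, varied most among the 4 abundant receptors. It had 666, 323, 604 and 701 normalized counts in controls 2, 3, 10 and 11 and 396, 653 and 476 in mutants 5, 12 and 13, and the lowest and highest libraries were both controls. Its log2 fold change was -0.17 with a wide interval (-0.79 to 0.44, adjusted p = 0.815 from edgeR), and it reached -0.39 without mutant library 12 and -0.011 without mutant library 5. *Sstr5*, best known from pituitary and pancreatic islet, was barely present, with 10 to 21 counts in control and 16 to 25 in mutant libraries, and a log2 fold change of 0.32 (95% interval -0.45 to 1.09, adjusted p = 0.703 from edgeR). Increases of *Sstr5* up to 1.09 and decreases down to -0.45 on the log2 scale remain within that interval, and few counts limit its precision.

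Per length, the receptors kept the same order in both genotypes. In controls *Sstr1* stood at 14.6 ± 3.38 CPM per kilobase (SD, n = 4 pools), *Sstr2* at 13.3 ± 0.687, *Sstr4* at 11.3 ± 3.38, *Sstr3* at 7.99 ± 0.104 and *Sstr5* at 0.163 ± 0.0474. *Cort* lay between *Sstr4* and *Sstr3*, and from *Sstr1* down to *Sstr3* each gene overlapped the next in its library values. In mutants *Sstr1* stood at 18.7 ± 3.39 (SD, n = 3 pools), *Sstr2* at 12.1 ± 0.433, *Sstr4* at 10.0 ± 2.60, *Sstr3* at 8.26 ± 0.507 and *Sstr5* at 0.205 ± 0.0457. There *Sstr1* was above *Sstr2* in library values without overlap, while *Sstr2* overlapped *Sstr4* and *Sstr4* overlapped *Sstr3*. The summed receptor level was 47.4 ± 7.29 in controls and 49.3 ± 5.94 in mutants, a difference smaller than the spread between pools.

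**Figure D4:**
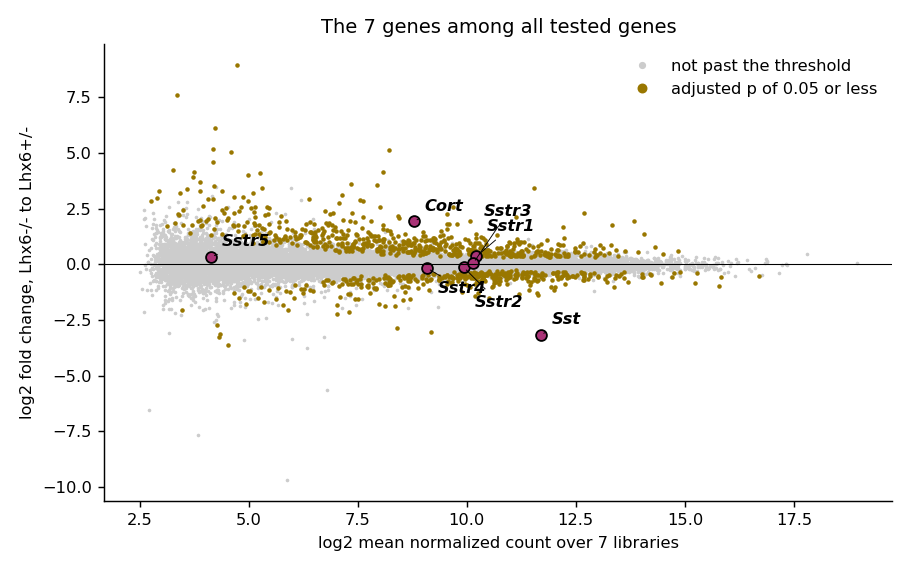
Log2 fold change in mutant relative to control forebrain (vertical axis) against the log2 mean normalized count over 7 libraries (horizontal axis) for the 19684 tested genes, with called genes in ochre. *Sst* (-3.19) lies far below and *Cort* (1.93) above the bulk of genes of their abundance, and the 5 receptors lie near 0, *Sstr5* at the low-count end.

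Genes with a library profile like that of the ligands were sought by the root mean square difference between profiles of log2 CPM, each relative to the gene's mean over the 7 libraries. Nearest to *Sst* was *Lhx6* (difference 0.232), followed by *Pvalb* (0.375), *Dmrt2* (0.439), *Akr1c18* (0.513) and *Ngb* (0.564), which encodes neuroglobin. Each was lower in mutants, and *Dmrt2* and *Akr1c18* had few counts (means of 32.63 and 38.2 in controls). Nearest to *Cort* was *Pnoc*, the precursor of the inhibitory peptide nociceptin (difference 0.140, 358 and 1256 normalized counts in controls and mutants, log2 fold change 1.81, adjusted p = 0.000389 from edgeR). Then followed the myosin gene *Myh8* (0.202), the granin gene *Scg2* (0.220), the vitamin D receptor gene *Vdr* (0.223) and *Bdnf* (0.227), a neurotrophin induced by neuronal activity. *Myh8*, *Scg2*, *Vdr* and *Bdnf* rose by 1.78, 1.76, 1.75 and 2.12 on the log2 scale. The call of *Vdr*, at 12.4 counts in controls, did not hold without mutant library 12 (adjusted p = 0.0584 from edgeR) or 13 (adjusted p = 0.0865). These likenesses rest mostly on the genotype difference and describe 7 libraries.

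Genes known to be enriched in somatostatin interneurons did not all follow *Sst*. Of 23 in this list, 9 were lower and 4 higher in mutants and 10 did not pass the threshold, with a median log2 fold change of -0.30, where 1.87% of tested genes were called lower and 2.97% higher, and the median of all tested genes was -0.013. *Lhx6* and *Moxd1*, which encodes a monooxygenase-like protein, had log2 fold changes of -2.88 and -1.58 (adjusted p = 5.99e-05 and 0.00278 from edgeR). *Npy* and *Myh8* rose by 1.69 and 1.78 (adjusted p = 0.000226 and 0.00408). Of those that passed, *Npy*, *Tac1*, *Crhbp* and *Myh8* were the genes on the side of *Cort*. The number called in the list was 8 without control library 2 or mutant library 5, 7 without control library 10 or mutant library 12, and 6 without mutant library 13. The calls of *Npy*, *Crhbp*, *Myh8*, *Lhx6* and *Moxd1* held without any 1 library, and that of *Tac1* was lost without control library 2 (adjusted p = 0.0685 from edgeR) or 10 (0.0895) and without mutant library 12 (0.129) or 13 (0.151).

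Markers of other cell types moved as well. Of 7 markers of *Pvalb* interneurons, 6 were lower and 0 higher, and their summed level was 369 to 475 CPM in controls and 210 to 247 in mutants, and 3 were called without mutant library 13. Of 11 markers of interneurons from the caudal ganglionic eminence, 4 were higher (*Vip*, *Cnr1*, *Ndnf* and *Adarb2*) and 0 lower, with sums of 592 to 690.5 CPM in controls and 763 to 863.5 in mutants. These 4 calls were lost without mutant library 12 or 13. The summed level of 7 markers of GABAergic neurons at large overlapped between genotypes (994 to 1165 CPM in controls and 929 to 1193 in mutants). Striatal markers summed to 357 to 543 CPM in controls and 517 to 747.5 in mutants, with 1 of 7 higher (*Penk*, not called without mutant library 12 or 13). Astrocyte markers summed to 1283 to 1406 CPM in controls and 1920 to 2183 in mutants, and 1 of 5 was higher, *Gfap*, which encodes a filament protein of astrocytes and had a normalized count of 6537 ± 490.4 in controls and 25200 ± 2556 in mutants (SD over 4 and 3 pools). *Gfap* made up most of the difference in that sum, and *Aldh1l1* and *Slc1a3* were 1.07 and 1.09 times their control means without passing the threshold. As for oligodendrocytes, 3 of 5 markers were lower (1 without mutant library 5 and 0 without mutant library 13). None of the tested markers of hypothalamus, thalamus, hindbrain, pituitary, choroid plexus, microglia or endothelium was called by edgeR, DESeq2 or limma-voom, where in edgeR 1 thalamic, 1 choroid plexus, 2 microglial and 2 endothelial genes had an unadjusted p of 0.05 or less, although the summed endothelial level was 178.5 to 192 CPM in controls and 224 to 229.5 in mutants. The part of these cell types in the changes of *Sst* and *Cort* was not tested.

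Genes that process the peptides or act with the receptors were counted by list, beside the 4.85% called among all tested genes. Counts by unadjusted p-value stand beside the 3590 of 19684 tested genes at 0.05 or less. Of 10 genes for precursor processing, *Pcsk1*, a convertase that cuts peptide precursors, was higher and 9 did not pass. *Pcsk1* had 637, 620, 787 and 731 normalized counts in controls 2, 3, 10 and 11 and 1193, 1274 and 1185 in mutants 5, 12 and 13, all above the controls. This corresponds to 0.81 ± 0.103 (standard error) on the log2 scale (adjusted p = 0.00424 from edgeR). *Pcsk2*, the other neuroendocrine convertase, went from 12860 ± 979 to 10380 ± 1186 normalized counts without overlap but also without passing the threshold (adjusted p = 0.155 from edgeR). With a term for the run in the model, 3 genes of this list were called, and within libraries 10 to 13 alone 4 were.

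Among the effectors, *Kcnj9*, which encodes a subunit of the G protein-gated inwardly rectifying potassium channel, fell to 49.6% of its control mean. It had 5600, 5400, 4954 and 5227 normalized counts in controls 2, 3, 10 and 11 and 2604, 2780 and 2498 in mutants 5, 12 and 13. This corresponds to -1.01 ± 0.0802 (standard error) on the log2 scale (adjusted p = 0.000581 from edgeR). The other 3 channel genes of the list, *Kcnj3*, *Kcnj5* and *Kcnj6*, had values of -0.21, -0.55 and 0.16 and did not pass. Of 12 genes for Gi/o proteins and adenylyl cyclases, 0 were called by edgeR, DESeq2 or limma-voom and 0 had an unadjusted p-value of 0.05 or less. Their log2 fold changes ran from -0.17 to 0.435, around a median of -0.020.

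Of 11 receptor partners and desensitization genes, *Adrbk2*, which encodes a G protein-coupled receptor kinase, was lower and 10 did not pass. Its mean was 3457 ± 287 in controls and 2488 ± 139 in mutants (SD, n = 4 and 3 pools), or -0.47 on the log2 scale (adjusted p = 0.0188 from edgeR). The call did not hold without control library 10 (adjusted p = 0.0519), mutant library 12 (0.0925) or mutant library 13 (0.111). Of 9 genes of the neuronal primary cilium, where *Sstr3* acts, 0 were called by edgeR, DESeq2 or limma-voom and 0 had an unadjusted p-value of 0.05 or less.

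**Figure D5:**
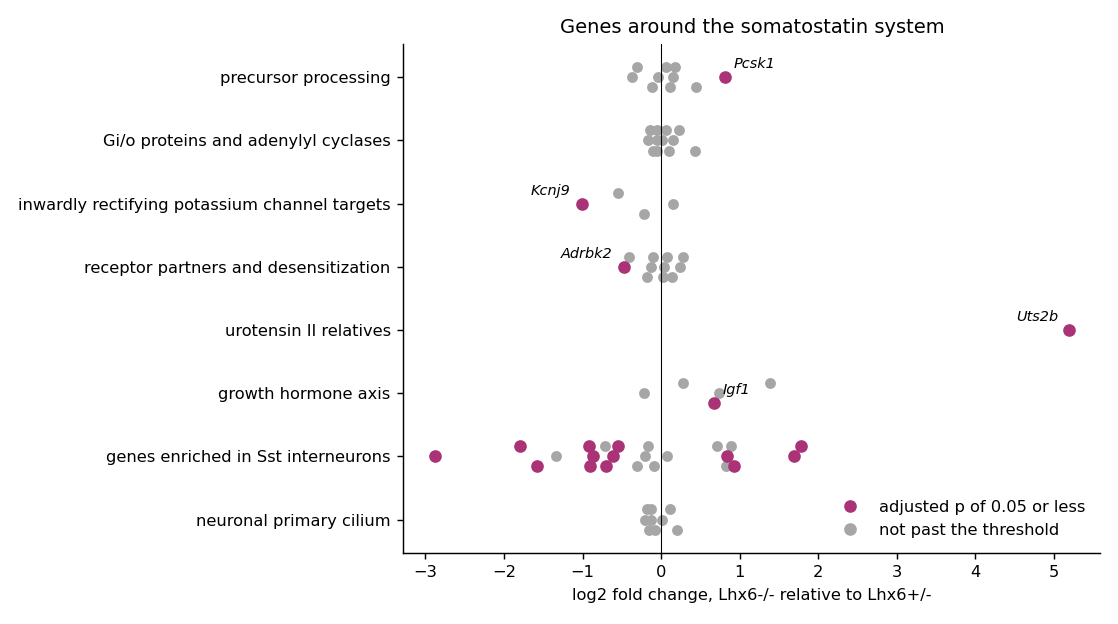
Log2 fold change in mutant relative to control forebrain (horizontal axis) of every tested gene in 8 lists around the somatostatin system (rows), with called genes in purple and named, except in the list of genes enriched in somatostatin interneurons, where 9 are lower and 4 higher. The Gi/o and cilium rows hold no called gene, and the estimate of *Uts2b* rests on 4 counts in all control libraries together.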

How the data were processed

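Forebrain RNA of 4 control and 3 mutant pools was sequenced on an Illumina GA IIx (36 bp, single-end). The authors trimmed reads with CutAdapt 1.9.1, aligned them with Bowtie2 2.2.9 to the Ensembl release 84 transcriptome (GRCm38) and deposited RSEM 1.2.31 expected counts per gene, without normalization (tool versions from the submitters' processing notes). Because RSEM shares out reads with more than 1 possible origin, counts need not be whole. A second deposited table holds the authors' DESeq2 fold changes and p-values, of which only the gene symbols were used. The deposited exon annotation gave positions and lengths. No per-sample column was left unused (0).

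Expected counts were rounded. The filter kept genes that reached 10 counts in 3 or more libraries, which were scaled by TMM and tested with edgeR 4.0.16 (quasi-likelihood F-test, genotype as the single term, Benjamini-Hochberg adjustment over all tested genes, threshold 0.05) in R 4.3.3. Standard errors were derived from the fold change and its F statistic. Ratios used log2 CPM with a prior count of 2. No pair of libraries of a genotype agreed within sampling noise (chi-square per degree of freedom 10.2 or more), so each counted as 1 replicate. P-values set the difference between genotypes against the spread between pools, which in the main model includes any difference between the runs of library numbers. Words of 36 bases came from GENCODE M21 transcripts (GRCm38). RefSeq promoter windows were found for 5 of the 7 genes. Scripts were tested on simulated data.

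The 7 genes, the gene lists, the naming rule (all 7 genes, at most 4 called genes of a list by smallest p, the urotensin II genes, genes with the nearest profiles, partners of ratios and neighbours) and the alternatives were chosen with earlier results of these data known. Alternatives were RLE and upper quartile scaling, DESeq2 1.42.0, limma-voom (limma 3.58.1), other filters, unrounded counts, the run of library numbers, each library left out, a prior count of 0.5, raw library sizes and the longest transcript. *Pcsk2*, *Crhbp*, *Tac1*, *Kcnj3*, *Kcnj5*, *Kcnj6*, *Aldh1l1*, *Slc1a3*, *Aqp4* and *Gja1* were named after their values were seen. Single-gene results for some markers of GABAergic and cortical excitatory neurons are not reported here.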

Additional observations from a re-analysis of the deposited data

How the results depend on the processing

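No call of the 7 genes changed under the 16 alternatives that gave one, and no direction changed under these or within libraries 2, 3 and 5, which gave a fold change without a test. Counts of called genes did change. The cause of these shifts was not tested. The number of genes called among all tested was 954, and became 1696 with DESeq2, 2205 with a term for the run of numbers and 1858 within libraries 10 to 13. It was below 954 without a filter and 1025 with a filter on all 7 libraries. DESeq2 and the term for the run each called 17 genes enriched in somatostatin interneurons, against 13, and upper quartile scaling and limma-voom each called 5 *Pvalb* interneuron markers, against 6. Upper quartile scaling called 2 astrocyte genes. DESeq2 called 2 receptor partners, 3 GABAergic genes and 3 astrocyte genes. A filter on all 7 libraries called 0 urotensin genes and 3 astrocyte genes. The term for the run called 3 precursor processing, 3 GABAergic, 1 hypothalamic, 3 astrocyte, 5 oligodendrocyte, 1 microglial and 2 endothelial genes. Libraries 10 to 13 alone called 4 precursor processing genes, 2 receptor partners, 3 GABAergic, 2 astrocyte, 5 oligodendrocyte and 2 endothelial genes.

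Leaving out each library in turn gave 302 (without mutant library 13) to 971 called genes in all, 0 to 2 receptor partners, 0 to 1 urotensin genes, 6 to 13 genes enriched in somatostatin interneurons, 0 to 1 GABAergic, 3 to 6 *Pvalb* interneuron, 0 to 4 caudal ganglionic eminence, 0 to 2 cortical excitatory, 0 to 1 striatal, 0 to 3 oligodendrocyte and 0 to 1 endothelial genes. The difference in the log2 ratio of *Sst* to *Pvalb* ran from -0.4412 without mutant library 5 to 0.1017 without mutant library 12, so its sign is not settled. No paired analysis was possible because the columns carry library numbers that no label ties to a replicate number. With 4 and 3 pools, the exact test cannot go below 0.0286, and *Sstr5* and *Uts2b* are limited by few counts.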

Other observations

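Urotensin II peptides are relatives of somatostatin and cortistatin that act on a receptor of their own. *Uts2b*, which encodes the urotensin-related peptide, reached 0, 0, 3.84 and 0 normalized counts in controls 2, 3, 10 and 11, against 23.0, 35.2 and 65.3 in mutants 5, 12 and 13 (adjusted p = 0.0120 from edgeR). All mutant libraries lay above all controls. With controls this low, *Uts2b* could pass the count filter only if all 3 mutant libraries reached 10 counts. The filter thus required this separation, which adds no evidence of its own. Without a filter on low counts, the adjusted p was 0.00467 from edgeR. Since 3 control libraries were at 0, a fitted fold change depends on the prior count, so none is given. *Uts2b* did not reach the count filter when any 1 mutant library was left out, nor with a filter on all 7 libraries. *Uts2*, which encodes urotensin II, had 3 counts or fewer in every library, and *Uts2r*, the receptor gene, had 0 to 5 counts in control and 3 to 6 in mutant libraries.

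Somatostatin restrains growth hormone release, so genes of that axis were listed too. Of 5 tested, *Igf1* was higher in mutants (522 ± 24.0 and 830 ± 42.8 normalized counts, SD, n = 4 and 3 pools, log2 fold change 0.67, adjusted p = 0.00507 from edgeR), and this call held without any 1 library. *Ghsr*, the ghrelin receptor, which also binds cortistatin, had 10.97, 12.1, 23.0 and 12.2 normalized counts in controls 2, 3, 10 and 11 and 25.9, 25.9 and 21.8 in mutants 5, 12 and 13. The genotypes overlapped through control library 10 and mutant library 13, and the log2 fold change of 0.74 did not pass the threshold (adjusted p = 0.292 from edgeR). *Ghrh* had 0.959 to 2.03 normalized counts in controls and 1.89 to 5.18 in mutants and was not tested.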
